A study of Mus musculus with 25 samples.

Results

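Neutrophils of Ripk3-/- mice were set directly against neutrophils of Mlkl-/- mice. The comparison takes 6 of the 25 bulk messenger RNA libraries of the series, 3 per genotype, chosen by their genotype labels. Both groups came from female C57BL/6J mice of 6 to 13 weeks, and the cells were collected from bone marrow by density, between Percoll layers of 68% and 78%. Ripk3-/- mice lack Ripk3 in every cell, Mlkl-/- mice lack Mlkl in every cell, and both kept Ptpn6, which encodes the phosphatase SHP-1, and Casp8, which encodes caspase-8. The labels mark neither group as inflamed and do not say which exons either allele removes or whether each library was 1 mouse. P-values therefore measure the spread between libraries, pooled per gene over the 23 libraries of 9 groups that were fitted together. The same genotype difference was also available with Ptpn6 deleted: 3 libraries of Ripk3-/- Ptpn6 deltaPMN against 2 of Mlkl-/- Ptpn6 deltaPMN, where deltaPMN in the labels marks a deletion in neutrophils. The promoter of the deleting Cre is not given in the sources used here. Levels of 2 Ripk3-/- Mlkl-/- libraries and 3 wild-type libraries are given as a frame for named genes.

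Necroptosis is a lytic cell death that runs in a short chain when caspase-8 is not active. Death receptors, Toll-like receptor adaptors or the nucleic acid sensor ZBP1 bring RIPK1 and RIPK3 together, RIPK3 is a kinase that phosphorylates MLKL, and phosphorylated MLKL breaks the plasma membrane. RIPK3 has also been described as a scaffold for caspase-8 and inflammasome signalling, functions that do not pass through MLKL. A direct contrast of the kinase knockout with the effector knockout therefore looks for transcripts that differ between losing RIPK3 and losing only the last step.

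Ripk3 was the only gene of 16206 tested that passed the threshold between the genotypes, and it was lower in Ripk3-/- neutrophils. Values are in CPM, the estimated counts scaled to library size and composition, and a log2 change is Ripk3-/- minus Mlkl-/-. Calls are at a Benjamini-Hochberg adjusted p under 0.05 in edgeR's quasi-likelihood F test over all genes. The 1 called gene is 0.00617% of those tested. No gene was called higher in Ripk3-/- neutrophils, where 445 genes (2.75%) had an unadjusted p under 0.05 and DESeq2 called 1. At that unadjusted level 369 genes (2.28%) were lower, which makes 814 (5.02%) in all.

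Ripk3, on the minus strand of chromosome 14 (GRCm38.p6, 55784995 to 55788857), had 0.0412, 0 and 0 CPM in the Ripk3-/- libraries, from 1, 0 and 0 estimated counts. In the Mlkl-/- libraries it had 4.80, 2.53 and 2.79 CPM, from 114, 54 and 59 counts. The groups were far apart, and the ratio of their summed counts was 0.00411, with a 95% interval of 0.000104 to 0.0232 that covers counting error only. The fitted log2 change was -7.43 ± 0.62 (SE; edgeR adjusted p = 5.43e-06). Ripk3-/- Mlkl-/- libraries held 0.0467 and 0.0427 CPM, as low as the Ripk3-/- libraries, while wild-type libraries held 10.5, 8.63 and 9.96 CPM. Every Mlkl-/- library thus read less Ripk3 than every wild-type library, a difference that was not tested here.

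Mlkl, on chromosome 8 (111311255 to 111338479), separated the groups in the other direction but did not pass the threshold. It had 1.85, 1.41 and 1.59 CPM in Ripk3-/- libraries, against 0.885, 0.515 and 0.757 CPM in Mlkl-/- libraries. The groups did not overlap, and the log2 change was 1.16 ± 0.41, with a 95% interval of 0.31 to 2.01 (unadjusted p = 0.0101, edgeR adjusted p = 0.702). Ripk3-/- Mlkl-/- libraries read 0.607 and 0.854 CPM, within the range of the Mlkl-/- libraries. Wild-type libraries read 4.88, 4.31 and 3.52 CPM, so the Ripk3-/- libraries were below wild type in Mlkl as well. Messenger RNA of Mlkl remained detectable in Mlkl-/- libraries, and how much of the transcript the allele leaves is not given in the sources used here.

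Casp8 and Ptpn6, which both genotypes retain, were present in all 6 libraries. Casp8 had 32.1, 31.7 and 29.3 CPM in Ripk3-/- libraries and 29, 26.8 and 25 CPM in Mlkl-/- libraries, a log2 change of 0.21 with an interval of -0.10 to 0.51. Ptpn6 had 519, 593 and 537 CPM in Ripk3-/- libraries and 493, 711 and 649 CPM in Mlkl-/- libraries, a log2 change of -0.17 with an interval of -0.49 to 0.16. The genotypes did not overlap in Casp8, as was so for 15.6% of all genes tested, and overlapped in Ptpn6. Neither gene was called.

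**Figure D1:**
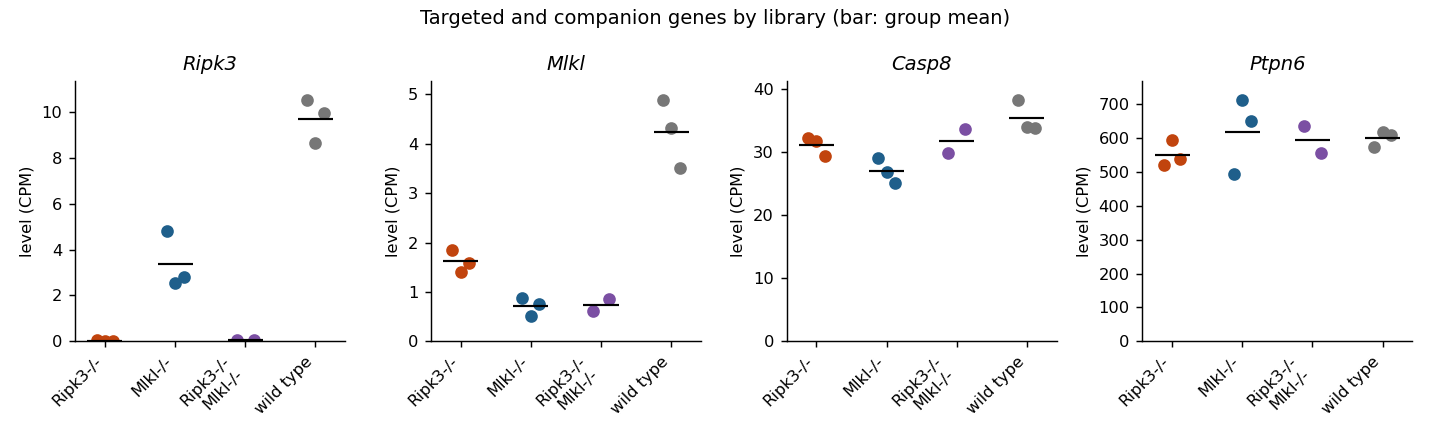
CPM (linear axis from 0) of Ripk3, Mlkl, Casp8 and Ptpn6 in each library of Ripk3-/-, Mlkl-/-, Ripk3-/- Mlkl-/- and wild type; points are libraries and bars are group means. Ripk3 is at 0 to 0.0412 CPM in Ripk3-/- libraries and at 2.53 to 4.80 CPM in Mlkl-/- libraries, and Mlkl is at 1.41 to 1.85 CPM in Ripk3-/- libraries and 0.515 to 0.885 CPM in Mlkl-/- libraries.

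The libraries were those of neutrophils by their markers. All 13 neutrophil markers were measured in every library, and their summed level was 83390 to 87321 CPM in Ripk3-/- libraries and 82747 to 94759 CPM in Mlkl-/- libraries. Depth was even over the series, at 21598177 to 23187676 estimated counts per library. Replicates of Mlkl-/- differed more from each other than those of Ripk3-/-: the median SD of a gene over 3 libraries was 0.178 for Ripk3-/-, 0.246 for Mlkl-/- and 0.159 for wild type, on the log2 CPM scale. By the mean level of the cell cycle, B cell and macrophage lists described further on, Mlkl-/- replicate 1 lay within the Ripk3-/- range.

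How small a difference these libraries could show depended on a gene's level. The 95% interval of the log2 change lay inside a 2-fold change in both directions for 9943 of 16206 genes (61.4%). That was so for 7867 of the 8959 genes at a mean of 5 CPM or more (87.8%), for 3221 of the 3334 above 50 CPM (96.6%), and for 366 of the 3812 up to 1 CPM. For most well-expressed genes the comparison thus bounded differences to under 2-fold, and for genes up to 1 CPM it mostly did not. Changes over all genes centred near 0, with a median of 0.01, quartiles of -0.18 and 0.26, and 51.0% of genes above 0. Among genes at 5 CPM or more, 19 had a fitted change beyond 2-fold, and none of the 19 was called.

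**Figure D2:**
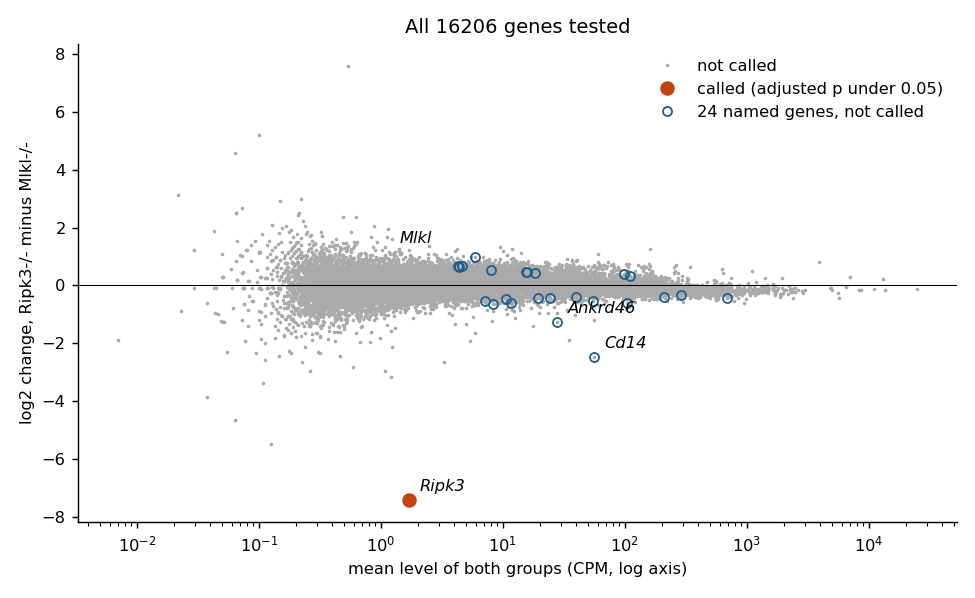
Fitted log2 change (Ripk3-/- minus Mlkl-/-) against the mean level of both groups (CPM, log axis) for the 16206 genes tested; the filled point is the called gene and open circles are the 24 genes of at least 5 CPM in the higher group, predicted genes left out, with the smallest p after it. Ripk3 at -7.43 stands apart, and the cloud narrows as the level increases.

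The next genes by p-value were described by their levels, since all had an edgeR adjusted p of 0.702. Among genes with a mean of at least 5 CPM in the higher group, the 24 with the smallest unadjusted p were taken, leaving out predicted genes. In 10 the fitted level was higher in Ripk3-/- neutrophils and in 14 it was lower. The CPM values of the groups did not overlap for 23 of the 24, the exception being Cd14. Over all genes tested, 15.6% showed no overlap, and these genes were picked by p, so their separation carries no weight of its own.

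Cd14, which encodes a lipopolysaccharide co-receptor of TLR4, had the widest fitted difference among the 24. It read 12.1, 17.9 and 20.6 CPM in Ripk3-/- libraries, against 18, 143 and 123 CPM in Mlkl-/- libraries. The high values were in Mlkl-/- replicates 2 and 3, while replicate 1 lay within the Ripk3-/- range. The log2 change was -2.49 ± 0.62, with an interval of -3.80 to -1.18 (unadjusted p = 0.000832). Ripk3-/- Mlkl-/- libraries read 15.9 and 14.8 CPM and wild-type libraries 9.84, 8.25 and 9.44 CPM, so that the high Cd14 values among these genotypes were those of 2 Mlkl-/- libraries.

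Ankrd46, which encodes an ankyrin repeat protein, read 27.0, 12.3 and 9.59 CPM in Ripk3-/- libraries, against 28.3, 55.4 and 35.1 CPM in Mlkl-/- libraries. Replicate 1 of each genotype read nearly the same, and the remaining libraries were well apart. The log2 change was -1.28 ± 0.37, with an interval of -2.05 to -0.50. Ripk3-/- Mlkl-/- libraries, at 29.4 and 29.3 CPM, and wild-type libraries, at 49.6, 55.8 and 49.6 CPM, were nearer to the Mlkl-/- levels.

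Trim13, which encodes a ubiquitin ligase of the endoplasmic reticulum, had the smallest unadjusted p of the 24 (0.000462). It read 8, 8.67 and 10.9 CPM in Ripk3-/- libraries, against 13.1, 13.4 and 15.7 CPM in Mlkl-/- libraries, a log2 change of -0.62 ± 0.15. Wild-type libraries, at 7.24, 6.68 and 6.68 CPM, lay below both knockouts. Trim13 overlaps Kcnrg and Dleu2 on chromosome 14, so reads there may be shared.

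Wdr7, a partner of the proton pump that acidifies vesicles, read 21.6, 20.5 and 21.2 CPM in Ripk3-/- libraries, against 17.4, 14.4 and 15.3 CPM in Mlkl-/- libraries. The log2 change was 0.42 ± 0.10, and wild-type libraries (21, 21 and 19 CPM) lay with Ripk3-/-. Gpatch1, a G-patch protein linked to splicing, read 5.73, 5.25 and 6.15 CPM in Ripk3-/- libraries, against 3.25, 4.26 and 3.31 CPM in Mlkl-/- libraries, a log2 change of 0.66 ± 0.18. Lars2, the mitochondrial leucyl-tRNA synthetase, read 8.33, 8.07 and 7.31 CPM in Ripk3-/- libraries, against 5.10, 3.46 and 3.41 CPM in Mlkl-/- libraries, a log2 change of 0.98 ± 0.31. Each of these 3 genes had a fitted change of under 2-fold. The log2 intervals of Gpatch1 (0.29 to 1.04) and Lars2 (0.34 to 1.63) reached beyond it.

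Of the other genes with higher fitted levels in Ripk3-/- neutrophils, Rdh14, Pop7, Dera, Vma21, Sept1, Commd3 and Vps13b had log2 changes of 0.33 to 0.68. They encode a retinol dehydrogenase, an RNase P subunit, deoxyribose-phosphate aldolase, an assembly factor of the vacuolar proton pump, a septin, a COMM domain protein and a lipid transfer protein of the Golgi. Sept1 was tight within each group, at 123, 119 and 124 CPM in Ripk3-/- libraries against 99.3, 99.3 and 93.2 CPM in Mlkl-/- libraries.

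Of the other genes with lower fitted levels, Zfp691, Ybey, Zfp488, Ago4, Tmc4, Preb, Kcnd1, Slc16a6, Sh2d3c, Map3k5 and Ager had log2 changes of -0.64 to -0.34. Map3k5 encodes ASK1, a stress kinase upstream of JNK and p38, and read 169, 187 and 187 CPM in Ripk3-/- libraries against 199, 242 and 275 CPM in Mlkl-/- libraries. Ager encodes the receptor for advanced glycation end products and read 17.3, 15.0 and 17.0 CPM in Ripk3-/- libraries against 21.3, 21.3 and 23.5 CPM in Mlkl-/- libraries. Sh2d3c, an adaptor of integrin and Cas signalling, was the most abundant of the 24, at 558, 551 and 631 CPM in Ripk3-/- libraries and 698, 760 and 904 CPM in Mlkl-/- libraries.

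Outside Ripk3 and Mlkl, the necroptosis and caspase-8 genes differed little. Of the 23 listed genes, all were tested, 1 (Ripk3) was called, 12 had a fitted change above 0, and 21 had an interval inside 2-fold. The list's median was 0.00, against 0.01 over all genes. Among receptors, Tnfrsf1a, the main TNF receptor of this death pathway, read 359, 413 and 435 CPM in Ripk3-/- libraries and 420, 479 and 523 CPM in Mlkl-/- libraries (log2 change -0.24, interval -0.53 to 0.06). Fas read 53.2, 61.4 and 69.7 CPM in Ripk3-/- libraries and 63.1, 75.5 and 86.3 CPM in Mlkl-/- libraries. Both receptors overlapped between the genotypes.

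Among the kinases and adaptors upstream of RIPK3, Ripk1 read 63.4, 66.7 and 64.1 CPM in Ripk3-/- libraries and 61.7, 68.3 and 71.5 CPM in Mlkl-/- libraries. Zbp1, the sensor that can engage RIPK3 directly, read 38.9, 34.4 and 26.2 CPM in Ripk3-/- libraries and 26.3, 35.2 and 26.3 CPM in Mlkl-/- libraries. Ticam1, which encodes the adaptor TRIF, read 14.8, 14.6 and 12.3 CPM in Ripk3-/- libraries and 13.2, 14.7 and 13.9 CPM in Mlkl-/- libraries. Levels of all 3 overlapped.

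Among the regulators, Cflar, which encodes the caspase-8 partner cFLIP, read 107, 97.5 and 109 CPM in Ripk3-/- libraries and 105, 112 and 113 CPM in Mlkl-/- libraries. Cyld, a deubiquitinase of the RIPK1 complex, read 79.2, 79.7 and 86.8 CPM in Ripk3-/- libraries and 88.7, 85.0 and 83.1 CPM in Mlkl-/- libraries. The ubiquitin chain assembly genes Sharpin, Rbck1 and Rnf31 ranged from 69.9 to 107 CPM in Ripk3-/- libraries and from 70.3 to 122 CPM in Mlkl-/- libraries. Apart from Ripk3 and Mlkl, Casp8 was the only listed gene whose groups did not overlap. That makes 3 of the 23 listed genes, against 15.6% over all genes tested.

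No member of any of the other 17 pathway lists was called, against 0.00617% over all genes. Intervals lay inside 2-fold for 17 of 18 specific granule, 8 of 13 azurophil granule and 23 of 30 interferon response genes. Over all genes tested that share was 61.4%. Interferon response genes had 19 of 30 above 0, a median of 0.06 and no member with an unadjusted p under 0.05. Azurophil granule genes, the earliest granule proteins, had 7 of 13 tested members above 0 and a median of 0.07. Specific granule genes had 6 of 18 above 0 and a median of -0.06. Ltf, which encodes lactoferrin, read 10198, 6650 and 6183 CPM in Ripk3-/- libraries and 7870, 6118 and 4808 CPM in Mlkl-/- libraries, with overlap.

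Gelatinase granule and maturation genes leaned lower in Ripk3-/- neutrophils, with 1 of 19 above 0, a median of -0.22 and 2 with an unadjusted p under 0.05. Csf3r, the receptor for granulocyte colony-stimulating factor, read 4508, 5015 and 5019 CPM in Ripk3-/- libraries and 5293, 6222 and 8074 CPM in Mlkl-/- libraries. Its groups did not overlap (log2 change -0.43, interval -0.84 to -0.02, edgeR adjusted p = 0.702). Stfa2l1, a stefin, read 149, 210 and 182 CPM in Ripk3-/- libraries and 195, 293 and 296 CPM in Mlkl-/- libraries, and reads of its near-identical family members may be shared. Interleukin-1 and inflammasome genes had 2 of 18 above 0 and a median of -0.22. Nlrp3, the inflammasome sensor, read 173, 184 and 200 CPM in Ripk3-/- libraries and 198, 245 and 249 CPM in Mlkl-/- libraries. These medians moved with single libraries: the gelatinase median was -0.11 without Mlkl-/- replicate 2 and -0.35 without Mlkl-/- replicate 1, and the interleukin-1 median was -0.13 without Mlkl-/- replicate 3 and -0.33 without Mlkl-/- replicate 1.

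Toll-like receptor genes with Cd14 had 7 of 21 above 0 and a median of -0.16, and 3 had an unadjusted p under 0.05. These were Cd14 and the receptors Tlr8 and Tlr6. Tlr8, an endosomal RNA sensor, read 101, 111 and 136 CPM in Ripk3-/- libraries and 136, 136 and 179 CPM in Mlkl-/- libraries. Tlr6, which pairs with TLR2 for lipopeptides, read 42.8, 56.8 and 54.5 CPM in Ripk3-/- libraries and 55.5, 65.6 and 84.7 CPM in Mlkl-/- libraries. Both overlapped between the genotypes, with log2 changes of -0.37 and -0.42. Without Mlkl-/- replicate 3 the list's median was -0.08.

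Apart from cell cycle genes, described next, medians of the remaining pathway lists lay between -0.14 for NADPH oxidase subunits and 0.19 for leukocyte integrins. NF-kB and TNF genes had a median of -0.08, chemokines and their receptors -0.07, BCL2 family members -0.07, glycolysis and hypoxia genes -0.08, immediate early genes -0.09, circadian clock genes 0.08, transcription factors of granulopoiesis 0.03, and SHP phosphatases with their receptors -0.10. Hvcn1, the voltage-gated proton channel, was the NADPH oxidase list member with the smallest p. It read 137, 145 and 131 CPM in Ripk3-/- libraries and 123, 106 and 92.3 CPM in Mlkl-/- libraries, without overlap. Ccl3, a chemokine for monocytes and neutrophils, read 11.9, 12.2 and 12.6 CPM in Ripk3-/- libraries and 9.40, 9.31 and 4.50 CPM in Mlkl-/- libraries, also without overlap. Neither was called.

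**Figure D3:**
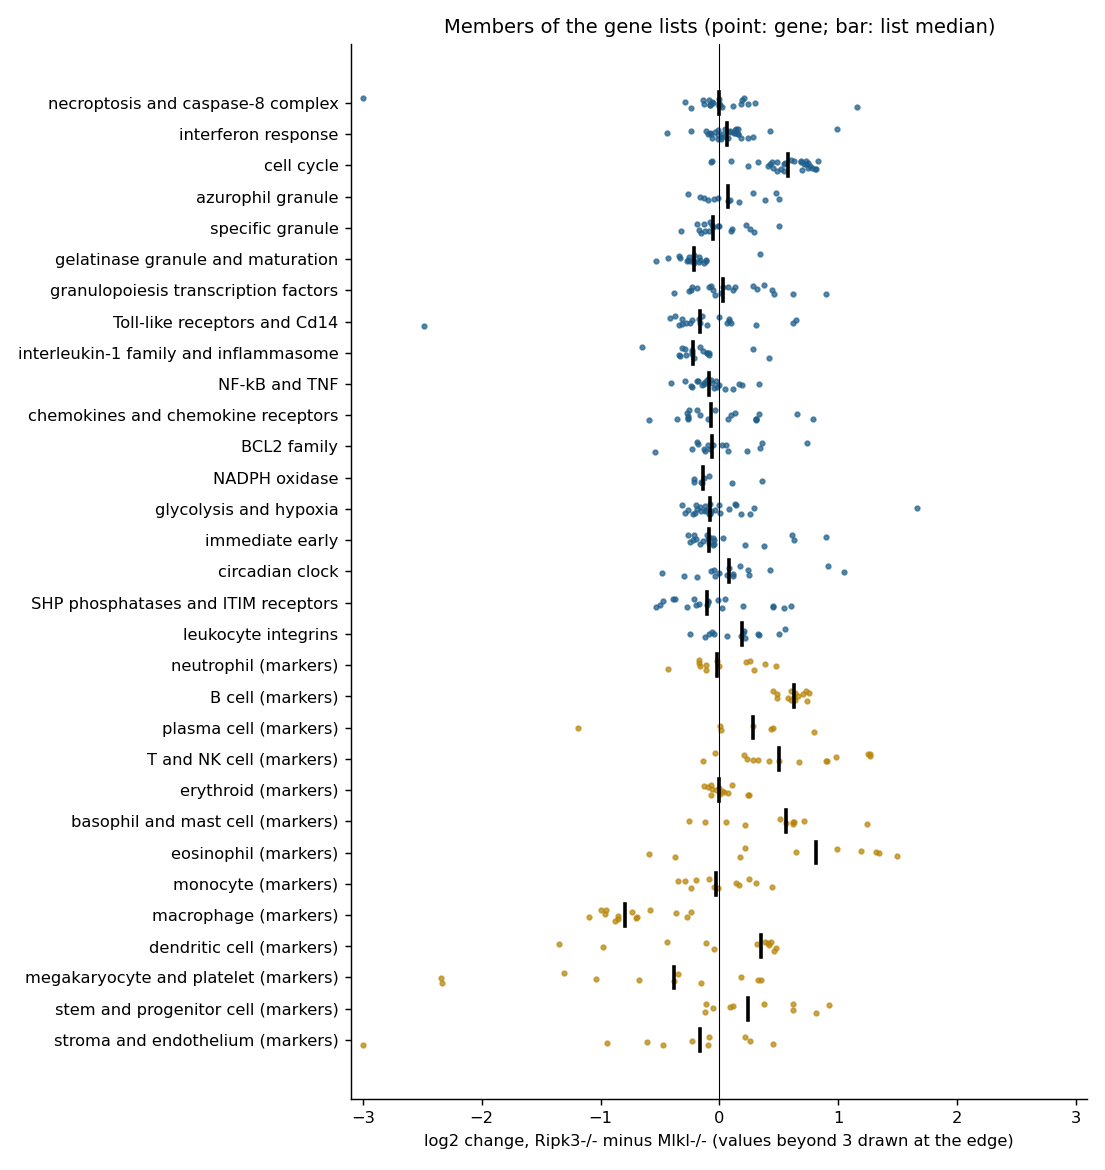
Median log2 change (Ripk3-/- minus Mlkl-/-) of the tested members of each of the 31 gene lists, drawn as a bar, with the members as points (values beyond 3 in size at the edge) and pathway lists above marker lists. Pathway medians lie between -0.22 and 0.19 except for cell cycle at 0.58, and the macrophage list at -0.80 and the eosinophil list at 0.82 (0.25 without Ripk3-/- replicate 3) are at the ends of the marker lists.

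Cell cycle genes were the pathway list with the widest median. Of its 30 members, 28 had a fitted change above 0, the median was 0.58 and 1 had an unadjusted p under 0.05, with none called. Ccnb2, which encodes cyclin B2, read 29.8, 17.5 and 15.0 CPM in Ripk3-/- libraries and 17.2, 10.8 and 6.96 CPM in Mlkl-/- libraries (log2 change 0.83 ± 0.34). Top2a, the topoisomerase of dividing cells, read 159, 65.4 and 55.1 CPM in Ripk3-/- libraries and 85.3, 44.4 and 29.1 CPM in Mlkl-/- libraries. The groups overlapped for every member, while 15.6% of all genes tested showed no overlap. Summed over the list, the level was 1298, 761 and 668 CPM in Ripk3-/- libraries, 897, 536 and 477 CPM in Mlkl-/- libraries, and 1277, 1147 and 1114 CPM in wild-type libraries. Without Ripk3-/- replicate 1 the list's median was 0.23, and without Mlkl-/- replicate 1 it was 1.09.

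Markers of other blood cells varied between libraries as well, and fewer cells of a type cannot be told apart from less RNA per cell in bulk samples. B cell markers were above 0 for 14 of 14, with a median of 0.63. Their summed level was 1487, 1181 and 1664 CPM in Ripk3-/- libraries, 1183, 933 and 745 CPM in Mlkl-/- libraries, and 1332, 1195 and 1340 CPM in wild-type libraries. Pax5, the B cell identity factor, read 137, 98.5 and 144 CPM in Ripk3-/- libraries and 103, 64.2 and 61.0 CPM in Mlkl-/- libraries. Vpreb3, a surrogate light chain partner, read 89.3, 73.0 and 85.3 CPM in Ripk3-/- libraries and 62.5, 51.9 and 37.1 CPM in Mlkl-/- libraries, without overlap. Neither was called, and no interval of the 14 markers lay inside 2-fold.

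T and NK cell markers were above 0 for 13 of 15 tested, with a median of 0.50, and 6 had an unadjusted p under 0.05. Gzmb, the cytotoxic protease granzyme B, read 1.94, 2.61 and 1.46 CPM in Ripk3-/- libraries and 0.885, 1.22 and 0.379 CPM in Mlkl-/- libraries (log2 change 1.27 ± 0.39, edgeR adjusted p = 0.702). It lies on chromosome 14 within 10 Mb of Ripk3. Granzyme genes share sequence, so reads of Gzmb may be shared, which was not tested. Prf1, the pore former perforin, read 5.32, 9.44 and 3.14 CPM in Ripk3-/- libraries and 2.74, 2.95 and 1.70 CPM in Mlkl-/- libraries. Nkg7, a granule protein of killer lymphocytes, read 16.4, 20.1 and 8.95 CPM in Ripk3-/- libraries and 9.36, 10.0 and 4.87 CPM in Mlkl-/- libraries. The summed level was 151, 226 and 99.8 CPM in Ripk3-/- libraries and 113, 118 and 74.7 CPM in Mlkl-/- libraries, and Ripk3-/- replicate 2 held the top value. Without that library the median was 0.18.

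Macrophage markers ran in the other direction, with 0 of 14 above 0 and a median of -0.80 (interval inside 2-fold for 3, unadjusted p under 0.05 for none, called in none). Their summed level was 264, 401 and 352 CPM in Ripk3-/- libraries, 290, 508 and 609 CPM in Mlkl-/- libraries, and 317, 285 and 320 CPM in wild-type libraries. Axl, a receptor for apoptotic cells, read 9.27, 17.2 and 14.1 CPM in Ripk3-/- libraries and 10.9, 32.1 and 35.5 CPM in Mlkl-/- libraries. Vcam1, an adhesion molecule of marrow macrophages, read 11.4, 20.7 and 15.7 CPM in Ripk3-/- libraries and 11.3, 32.1 and 49.7 CPM in Mlkl-/- libraries. The mannose receptor gene Mrc1 read 4.45, 9.44 and 7.74 CPM in Ripk3-/- libraries and 6.07, 16.6 and 20.4 CPM in Mlkl-/- libraries. Mlkl-/- replicates 2 and 3 carried the high values of all 3, the same libraries that were high in Cd14. The macrophage list's mean log2 CPM was 4.25 and 4.56 in these 2 libraries. It was 2.75 and 4.55 in the Ripk3-/- Mlkl-/- libraries, where Cd14 read 15.9 and 14.8 CPM. In the Mlkl-/- Ptpn6 deltaPMN libraries it was 3.34 and 2.70, where Cd14 read 259 and 230 CPM. The part of macrophage RNA in the Cd14 values was not tested. Without Mlkl-/- replicate 3 the list's median was -0.43, and without Mlkl-/- replicate 1 it was -1.19.

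Eosinophil markers had a median of 0.82 with 8 of 10 above 0, and basophil and mast cell markers 0.56 with 9 of 11. Alox15, a lipoxygenase of eosinophils, read 22.6, 19.3 and 24.2 CPM in Ripk3-/- libraries and 18.3, 18.3 and 5.58 CPM in Mlkl-/- libraries. Cpa3, a mast cell and basophil protease, read 33.8, 30.9 and 39.7 CPM in Ripk3-/- libraries and 31.6, 29.3 and 6.86 CPM in Mlkl-/- libraries. Both genes were lowest in Mlkl-/- replicate 3, and without that library the basophil and mast cell median was 0.14. Without Ripk3-/- replicate 3 the eosinophil median was 0.25. Medians of the monocyte (-0.03), erythroid (0.00), neutrophil (-0.02), plasma cell (0.28), dendritic cell (0.35), megakaryocyte (-0.38), stem and progenitor (0.24) and stroma (-0.16) lists came with no called gene. No tested marker of any list was at 0 in all 6 libraries.

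**Figure D4:**
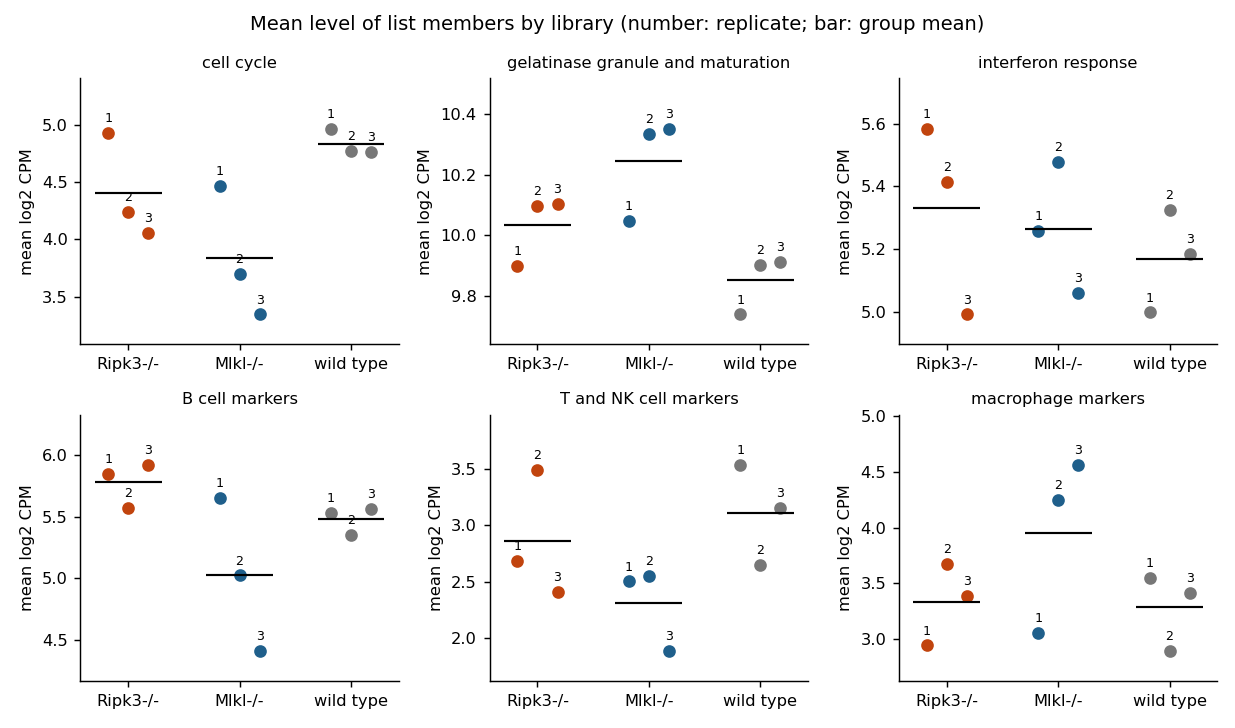
Mean log2 CPM of the tested members of 6 lists in each library of Ripk3-/-, Mlkl-/- and wild type; points are libraries with their replicate number and bars are group means. Cell cycle and B cell means are lowest in Mlkl-/- replicate 3, and the macrophage mean is highest there.

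Genes close to each targeted gene were examined separately, since a targeted allele is inherited with the chromosome around it. Within 10 Mb of Ripk3 on chromosome 14, 193 other genes were tested and none was called. Of these, 16 (8.29%) had an unadjusted p under 0.05, against 5.02% over all genes, 120 were above 0 and the median was 0.13. The smallest p-values there belonged to Trim13, Kcnrg, Gzmb and Mtmr9. Kcnrg, a potassium channel regulator, read 3.34, 2.35 and 2.84 CPM in Ripk3-/- libraries and 3.88, 4.54 and 5.68 CPM in Mlkl-/- libraries. Mtmr9, a myotubularin-related protein, read 40.6, 43.6 and 32.4 CPM in Ripk3-/- libraries and 29.2, 29.2 and 29.0 CPM in Mlkl-/- libraries. In both, the CPM values of the genotypes did not overlap, as was so for 15.6% of all genes tested, and neither was called. Both genes were picked by p. Kcnrg lies over Trim13 and Dleu2 on the chromosome, so reads there may be shared.

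Within 10 Mb of Mlkl on chromosome 8, 170 other genes were tested and none was called. There, 8 (4.71%) had an unadjusted p under 0.05 and the median was 0.04. Acd, a telomere shelterin subunit, read 24.4, 25.2 and 26.5 CPM in Ripk3-/- libraries and 21.9, 20.4 and 18.2 CPM in Mlkl-/- libraries. Vac14, a scaffold of phosphoinositide synthesis, read 26.3, 23.3 and 23.4 CPM in Ripk3-/- libraries and 19.4, 18.2 and 17.4 CPM in Mlkl-/- libraries. Their log2 changes were 0.33 and 0.41.

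**Figure D5:**
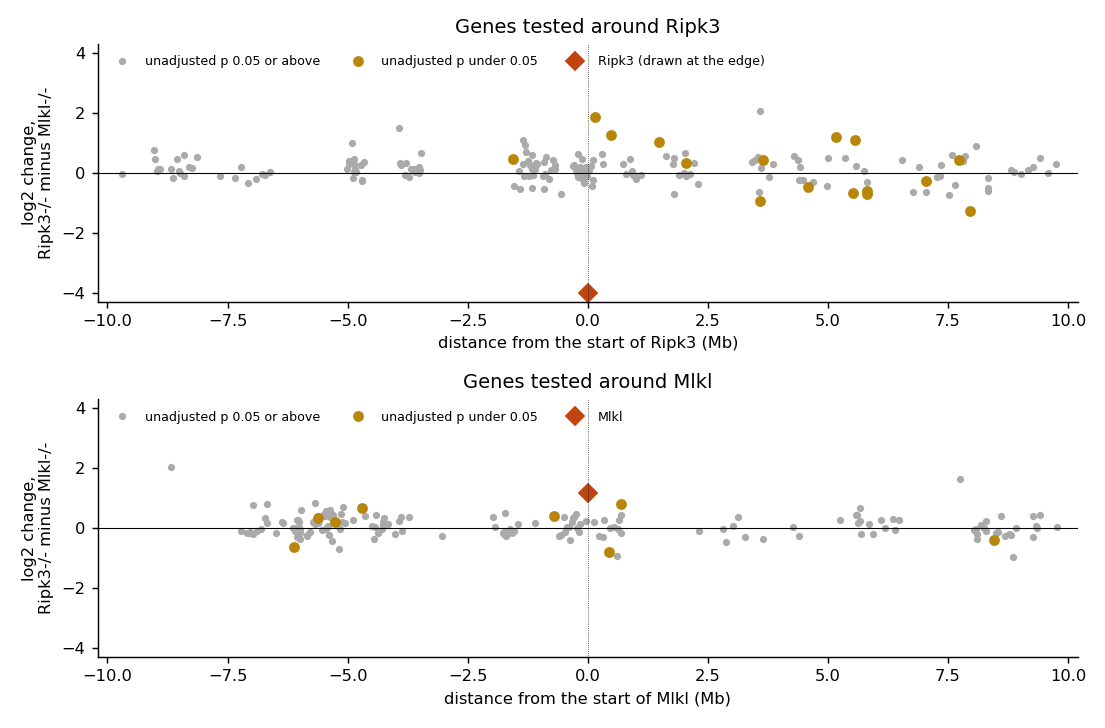
Log2 change (Ripk3-/- minus Mlkl-/-) of tested genes against distance (Mb) from the start of Ripk3 and of Mlkl, out to 10 Mb on each side; diamonds are the targeted genes and larger points have an unadjusted p under 0.05. Ripk3, at -7.43, is drawn at the lower edge and Mlkl lies at 1.16, and none of the 193 and 170 neighbouring genes was called.

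With Ptpn6 deleted, the same genotype difference gave 3 called genes of 16206 (0.0185%), all lower in Ripk3-/- Ptpn6 deltaPMN than in Mlkl-/- Ptpn6 deltaPMN neutrophils. These libraries share no sample with the comparison above. Ptpn6 transcript remained in them, at 297, 188 and 202 CPM in Ripk3-/- Ptpn6 deltaPMN libraries and 183 and 194 CPM in Mlkl-/- Ptpn6 deltaPMN libraries. All 5 values lay below those of the libraries with Ptpn6 intact. Ripk3 read 0.155, 0.0490 and 0.0822 CPM in Ripk3-/- Ptpn6 deltaPMN libraries, against 2.93 and 4.54 CPM in Mlkl-/- Ptpn6 deltaPMN libraries, a log2 change of -5.17. No gene was called higher, while 1910 (11.8%) had an unadjusted p under 0.05 and DESeq2 called 35.

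Ankrd46 read 8.60, 9.46 and 9.54 CPM in Ripk3-/- Ptpn6 deltaPMN libraries, against 57.2 and 48.3 CPM in Mlkl-/- Ptpn6 deltaPMN libraries. The groups were widely separated, and the log2 change was -2.52 (edgeR adjusted p = 0.041), where the mice with intact Ptpn6 gave -1.28. The call was lost on leaving out any of 4 of the 5 libraries, with an adjusted p of 0.0918 to 0.223. Sncaip, which encodes synphilin-1, a partner of alpha-synuclein, read 0.310, 0.245 and 0.411 CPM in Ripk3-/- Ptpn6 deltaPMN libraries, against 3.85 and 7.75 CPM in Mlkl-/- Ptpn6 deltaPMN libraries (log2 change -4.14, edgeR adjusted p = 0.00294). With Ptpn6 intact it read 0.536, 0.470 and 0.387 CPM in Ripk3-/- libraries and 0.337, 0.328 and 0.142 CPM in Mlkl-/- libraries, so the high level was that of the Mlkl-/- Ptpn6 deltaPMN libraries. Sncaip was chosen after its values were seen, and its call was lost without Ripk3-/- Ptpn6 deltaPMN replicate 1 (adjusted p = 0.0513) and without Mlkl-/- Ptpn6 deltaPMN replicate 2 (0.143). DESeq2 gave Sncaip and Ripk3 no adjusted p in this comparison, so neither is among its calls.

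The number of calls in the Ptpn6-deleted comparison turned on single libraries. It was 1 without Ripk3-/- Ptpn6 deltaPMN replicate 1, 1 without Mlkl-/- Ptpn6 deltaPMN replicate 2, 5 without Mlkl-/- Ptpn6 deltaPMN replicate 1 and 1334 without Ripk3-/- Ptpn6 deltaPMN replicate 2. Of all genes, 3673 (22.7%) had an unadjusted p under 0.05, against 5.02% with Ptpn6 intact.

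Cd14 had the same direction in both settings. It read 21.2, 65.7 and 28.2 CPM in Ripk3-/- Ptpn6 deltaPMN libraries, against 259 and 230 CPM in Mlkl-/- Ptpn6 deltaPMN libraries, without overlap (log2 change -2.68, edgeR adjusted p = 0.11). It was not called there in the fit over all groups, but DESeq2 gave an adjusted p of 0.0119, and without Ripk3-/- Ptpn6 deltaPMN replicate 2 it was 0.0274. Mlkl read 1.78, 2.06 and 3.58 CPM in Ripk3-/- Ptpn6 deltaPMN libraries, against 0.325 and 0.878 CPM in Mlkl-/- Ptpn6 deltaPMN libraries (log2 change 2.02, edgeR adjusted p = 0.11). Gpatch1 read 5.65, 5.49 and 5.88 CPM in Ripk3-/- Ptpn6 deltaPMN libraries, against 3.47 and 2.84 CPM in Mlkl-/- Ptpn6 deltaPMN libraries, again without overlap and again not called.

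Gene lists took other values with Ptpn6 deleted. The interferon response median was -1.13 with 1 of 30 above 0, where it was 0.06 with Ptpn6 intact. The list's mean log2 CPM was 5.53, 5.20 and 5.19 in Ripk3-/- Ptpn6 deltaPMN libraries and 6.09 and 6.66 in Mlkl-/- Ptpn6 deltaPMN libraries. In the Ripk3-/- Mlkl-/- libraries, with Ptpn6 intact, it was 6.28 and 5.58, so it varied between single libraries there too. Specific granule genes had a median of -0.61 with 0 of 18 above 0, where it was -0.06. Cell cycle genes had 0.65 with 30 of 30 above 0, B cell markers 1.15 with 14 of 14, and macrophage markers -0.45 with 1 of 14. The median over all genes was 0.07 there, with 54.9% above 0.

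Whether the genotype difference itself differed between the Ptpn6 settings was tested as an interaction. No gene was called by edgeR, 947 (5.84%) had an unadjusted p under 0.05, and DESeq2 called 4. The smallest edgeR adjusted p was 0.121, for Sncaip, which was called with no filter on low counts (adjusted p = 0.0178). Sncaip and Wdr7 were among the 4 genes that DESeq2 called, each with an adjusted p of 0.0006. Wdr7, which read 19.9, 20.9 and 21.5 CPM in Ripk3-/- Ptpn6 deltaPMN libraries against 25.8 and 29.9 CPM in Mlkl-/- Ptpn6 deltaPMN libraries, had an interaction of -0.85 with an edgeR adjusted p of 0.261. The differing list medians are descriptions of the libraries, and their difference was not tested.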

How the data were processed

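As deposited by the authors, the values are estimated counts (expected counts, unscaled for depth or length) of 35741 gene symbols in 25 libraries. Per the submitters' processing notes, the tools were Salmon 0.14.1 and DESeq2 and the build GRCm38.p6. Per the labels' protocols, messenger RNA was enriched and read as pairs of 100 bases. How transcripts were summed to genes and whether strand was used are not given in the sources used here. Counts were rounded to whole numbers.

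The 23 libraries of 9 groups with 2 or more members were fitted together in edgeR 4.0.16 (R 4.3.3): TMM scaling, filterByExpr (minimum count 10, total 15), quasi-likelihood F test, 14 residual degrees of freedom, 16206 genes, Benjamini-Hochberg adjustment. The library with conflicting labels and the group with 1 library were left out. CPM used effective library sizes. Coordinates came from RefSeq (GRCm38.p6), matched for 95.7% of tested symbols. Replicates of a group differed beyond sampling noise.

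Named genes were the targeted genes, called genes filled up to 24 by unadjusted p at 5 CPM or more, up to 3 members per list by p, and up to 4 per 10 Mb window. The members and lists were chosen with earlier results of these data known. Correlations of deviations for shared replicate numbers were 0.207, 0.0990 and 0.0455. Unlike numbers were not compared, so these values cannot tell whether the numbers mark pairs. Alternatives were other size factors, no filter, DESeq2 1.42.0, fits of fewer libraries, a replicate block and each library left out. The pipeline was tested on simulated data. Figures used matplotlib 3.10.9.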

Additional observations from a re-analysis of the deposited data

How the results depend on the processing

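Ripk3 was called for Ripk3-/- against Mlkl-/- under every alternative run, with a log2 change of -9.25 to -6.99, and it was the only call except with DESeq2 1.42.0, which called 2. The other was Xntrpc (log2 change 6.98, adjusted p = 0.0172), with 76 counts over the Ripk3-/- libraries and 0 over the Mlkl-/- libraries. Its level was at least 23.7-fold higher against a floor of 3 counts over the group, it is a readthrough gene that shares exons with its neighbours, so its count is uncertain, and edgeR's adjusted p was 0.702. Leaving out each library kept 1 call, while genes at an unadjusted p under 0.05 ran from 239 (without Mlkl-/- replicate 3) to 2161 (without Mlkl-/- replicate 1), against 814. A fit of only the libraries compared left 1 call, with 1450 of 14502 genes at an unadjusted p under 0.05. Adding the replicate block to that fit left 1 call, with 2923 such genes. The unadjusted count thus depended on the block, and whether the replicate numbers mark pairs was not settled.

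With Ptpn6 deleted, the 3 calls became 5 with DESeq2 size factors, 25 with no filter on low counts, 634 with DESeq2, 10 with only the libraries compared, 211 with the replicate block and 1 to 1334 leaving out each library. The interaction gave 1 call without the filter, 4 with DESeq2 and 0 with the replicate block. The causes were not tested. A group reduced to 1 library was taken to vary like the other groups. Of the 31 list medians of Ripk3-/- against Mlkl-/- with Ptpn6 intact, 19 kept 1 sign under every alternative. The other 12, whose main medians were -0.16 to 0.35, did not. List medians with Ptpn6 deleted were not taken under the alternatives. No reported gene reversed. At 2 or 3 libraries a group, genes up to 1 CPM mostly could not be bounded within 2-fold.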

Other observations

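By chromosome, the share of tested genes at an unadjusted p under 0.05 between Ripk3-/- and Mlkl-/- neutrophils was highest on chromosome 15, at 7.5% of 640 genes, and lowest on chromosome 1, at 3.47% of 950. Ankrd46 starts at 36477668 and Vps13b at 35371118 on chromosome 15. Rpl30 and Laptm4b, which were chosen after their values were seen, lie on the same chromosome. Shares within parts of chromosome 15 were not counted. Rpl30, a ribosomal protein gene with many processed copies and thus uncertain counts, read 39.1, 2.99 and 2.24 CPM in Ripk3-/- libraries and 40.3, 88.7 and 35.1 CPM in Mlkl-/- libraries. Ripk3-/- Ptpn6 deltaPMN libraries read 1.94, 1.18 and 1.15 CPM of Rpl30, against 79.2 and 64.7 CPM in Mlkl-/- Ptpn6 deltaPMN libraries. Laptm4b, a lysosomal membrane protein, read 9.31, 24.3 and 24.7 CPM in Ripk3-/- libraries and 11, 1.26 and 14.6 CPM in Mlkl-/- libraries. With Ptpn6 deleted it read 17.8, 28.2 and 18.8 CPM in Ripk3-/- Ptpn6 deltaPMN libraries, against 1.41 and 1.03 CPM in Mlkl-/- Ptpn6 deltaPMN libraries. Wild-type libraries read 84.1, 64.4 and 90.2 CPM of Rpl30 and 0.866, 0.423 and 0.800 CPM of Laptm4b. In Ripk3-/- replicate 1 and Mlkl-/- replicate 1 the values of Ankrd46, Rpl30 and Laptm4b were close to each other. Neither Rpl30 (log2 change -1.89 and, with Ptpn6 deleted, -5.64) nor Laptm4b (1.12 and 4.14) was called in either comparison; the edgeR adjusted p was 0.702 for both with Ptpn6 intact, and with Ptpn6 deleted 0.0787 for Rpl30 and 0.11 for Laptm4b. A fit of only the 5 Ptpn6-deleted libraries called both.

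Jchain, which encodes the joining chain of secreted antibodies, went against the other plasma cell markers. It read 8.20, 23.8 and 69.7 CPM in Ripk3-/- libraries and 80.9, 116 and 35 CPM in Mlkl-/- libraries (log2 change -1.19, edgeR adjusted p = 0.702), while 6 of the 7 markers tested were above 0. Erythroid markers summed to 2384 to 9981 CPM in Ripk3-/- libraries and to 4294 to 7127 CPM in Mlkl-/- libraries.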
